A study of Mus musculus with 3 samples.

Results

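The genes described here are 10 of the 32285 genes counted in this study. They comprise the suppressors of cytokine signalling Socs1, Socs2, Socs3 and Cish, the interferon receptor chains Ifngr1, Ifngr2, Ifnar1 and Ifnar2, and the receptor-bound kinases Jak1 and Jak2. They were chosen by name, for their place in the feedback arm of interferon and cytokine signalling, and their unique molecular identifier (UMI) counts were read by library and by the deposited clusters of type 1 conventional dendritic cells (cDC1s), numbered 0 to 11. Clusters 7, 8, 9 and 10, which hold the activated cells, were set against the sum of the remaining 8 clusters, called the other cDC1s.

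The study describes where cDC1s lie in a tumour and which states they take, and it added mice lacking secreted gelsolin (sGSN), a plasma protein that binds actin filaments, or also DNGR-1, the Clec9a-encoded receptor through which cDC1s bind actin exposed on dead cells. Pre-cDCs, cDC1s and cDC2s were sorted from MCA205 LA OVA tumours, a transplantable fibrosarcoma made to express ovalbumin, 5 days after injection into both flanks, and their RNA was read in single cells. Cells of several mice of both sexes, aged 6 to 20 weeks and on a C57BL/6J background, were pooled by genotype into 1 library each. The WT library came from wild-type mice, the sGSN-/- library from mice lacking secreted gelsolin, and the sGSN-/-Clec9a-/- library from mice lacking both secreted gelsolin and Clec9a. Both mutant groups thus lacked secreted gelsolin, no group lacked Clec9a alone, and no genotype had a second library.

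Interferons and many other cytokines bind paired receptor chains whose cytoplasmic tails carry Janus kinases (JAKs), and the kinases phosphorylate STAT transcription factors that enter the nucleus. The STATs switch on, among other genes, the SOCS family, whose proteins bind the receptors or the kinases and damp the same signal, so that a SOCS transcript is both a product and a brake of cytokine signalling. In dendritic cells SOCS1 is known to restrain responses to interferon gamma and the capacity to prime T cells, SOCS3 to restrain signals of the gp130 receptors, and CISH and SOCS2 to follow cytokines that act through STAT5, such as GM-CSF.

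The 3 libraries held 12763 (WT), 8173 (sGSN-/-) and 9273 (sGSN-/-Clec9a-/-) barcodes with 176578136, 109270958 and 113411930 UMIs. The deposited table named 2316, 1712 and 1778 of these barcodes as cDC1s, 5806 in all, with a median of 14092, 14150 and 12231 UMIs per cell. Cluster 7 held 154, 134 and 134 cells in WT, sGSN-/- and sGSN-/-Clec9a-/-, cluster 8 held 84, 114 and 57, cluster 9 held 67, 40 and 55, and cluster 10 held 21, 27 and 28. Each level is the ppm share of a gene among all UMIs of the summed cells (CPM), always in the order WT, sGSN-/-, sGSN-/-Clec9a-/-. Clec9a checked the labels: cDC1s carried 168 CPM in WT, 168 in sGSN-/- and 0.0931 (2 UMIs) in sGSN-/-Clec9a-/-. Gsn was counted at 152, 169 and 167 CPM, but its 3' tag is shared with the cytoplasmic isoform that these mice keep, so it checks nothing. The 7 cDC1 markers summed to 1292 CPM in WT, 1311 in sGSN-/- and 1196 in sGSN-/-Clec9a-/- in the other cDC1s. Cluster 10 had 1098, 925 and 850.2 CPM of them, and cluster 8, with the least of the 2, had 471, 529 and 743 CPM. Clec9a is 1 of the 7, so the sums of sGSN-/-Clec9a-/-, where it stood at 0.0931 CPM over all cDC1s against 168 in WT, lack it by construction. Of cell barcodes, 26, 28 and 27 were shared between pairs of libraries, and 2, 2 and 3 of those named cDC1s in both.

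Socs1, whose protein blocks JAK1, JAK2 and TYK2 and is the principal brake on interferon gamma signalling, was counted in the other cDC1s at 15.6 CPM in WT, 15.01 in sGSN-/- and 13.6 in sGSN-/-Clec9a-/-. In cluster 10 it stood at 230.3 CPM in WT, 103 in sGSN-/- and 201 in sGSN-/-Clec9a-/-. In cluster 8 the level was 38.8 CPM in WT, 42.5 in sGSN-/- and 44.6 in sGSN-/-Clec9a-/-, and in cluster 7 34.6, 46.4 and 32.5 CPM. Cluster 10 was the highest of the 12 clusters, its lowest library (103 CPM) lying above the highest of any other cluster (46.4 CPM, in cluster 7), while clusters 8 and 7 overlapped each other. Cluster 9, at 12.5, 9.01 and 17.8 CPM, overlapped the other cDC1s. By mean level the clusters ran 10, 8, 7, 3, 4, 11, 2, 5, 9, 6, 1 and 0, and neighbours overlapped in their libraries except from 10 to 8, from 7 to 3 and from 6 to 1. Cluster 11, the shallowest, spread from 0 to 46.0 CPM across libraries.

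Socs2, an inhibitor best known for restraining growth hormone signalling, was close to absent from most cDC1s: the other cDC1s held 14, 16 and 6 UMIs in the 3 libraries, or 0.499 CPM in WT, 0.828 in sGSN-/- and 0.329 in sGSN-/-Clec9a-/-. In cluster 8 it stood at 306 CPM in WT, 264 in sGSN-/- and 126 in sGSN-/-Clec9a-/- (316, 335 and 65 UMIs). In cluster 10 there were 4, 5 and 1 UMIs, or 14.2, 16.1 and 3.35 CPM. Cluster 8 therefore carried 716 of the 765 Socs2 UMIs of all cDC1s, 93.6% (exact Clopper-Pearson 95% interval 91.6 to 95.2, counting error only), with 3.63% of all cDC1 UMIs. Its libraries overlapped those of no other cluster, and sGSN-/-Clec9a-/- was the low one. Clusters 7 and 9 held 2 and 1 Socs2 UMIs. In order of the mean the clusters ran 8, 10, 5, 4, 1, 6, 9, 7, 0, 3, 2 and 11; neighbours overlapped in their libraries except from 8 to 10 and from 10 to 5, and cluster 11 had no Socs2 UMI.

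Socs3, whose protein binds gp130 and restrains signals of the interleukin 6 family, was present throughout, at 69.3 CPM in WT, 72.6 in sGSN-/- and 74.9 in sGSN-/-Clec9a-/- in the other cDC1s. Cluster 10 was the high one, at 291 CPM in WT, 187 in sGSN-/- and 208 in sGSN-/-Clec9a-/-. Cluster 9 stood at 107, 117 and 88.8 CPM, cluster 8 at 52.3, 77.1 and 71.8 CPM, and cluster 7, the lowest of the 12 by mean, at 55.3, 42.1 and 34.2 CPM. The lowest library of cluster 10 (187 CPM) exceeded every library of the other clusters, the nearest being 138 CPM in cluster 11. Clusters 9 and 7 did not overlap the other cDC1s, the former above and the latter below them, whereas cluster 8 did overlap them. The sequence from high to low was 10, 4, 9, 3, 11, 2, 6, 5, 8, 1, 0 and 7, and neighbours overlapped in their libraries except from 10 to 4.

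Cish, the STAT5-induced member of the family, which in T cells restrains receptor signalling, stood at 5.67 CPM in WT, 9.78 in sGSN-/- and 6.53 in sGSN-/-Clec9a-/- in the other cDC1s. Cluster 10 had 135 CPM in WT, 103 in sGSN-/- and 40.2 in sGSN-/-Clec9a-/-, and cluster 8 had 36.8 CPM in WT, 27.6 in sGSN-/- and 40.8 in sGSN-/-Clec9a-/-. Both lay above the other cDC1s in each library. They overlapped each other, because the sGSN-/-Clec9a-/- library of cluster 10 (40.2 CPM) fell within the range of cluster 8. Clusters 7 (11.4, 9.95 and 6.84 CPM) and 9 (8.64, 5.41 and 11.8 CPM) overlapped the other cDC1s. From highest to lowest mean the clusters were 10, 8, 11, 4, 5, 7, 9, 6, 1, 0, 3 and 2, and neighbours overlapped at each step.

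**Figure D1:**
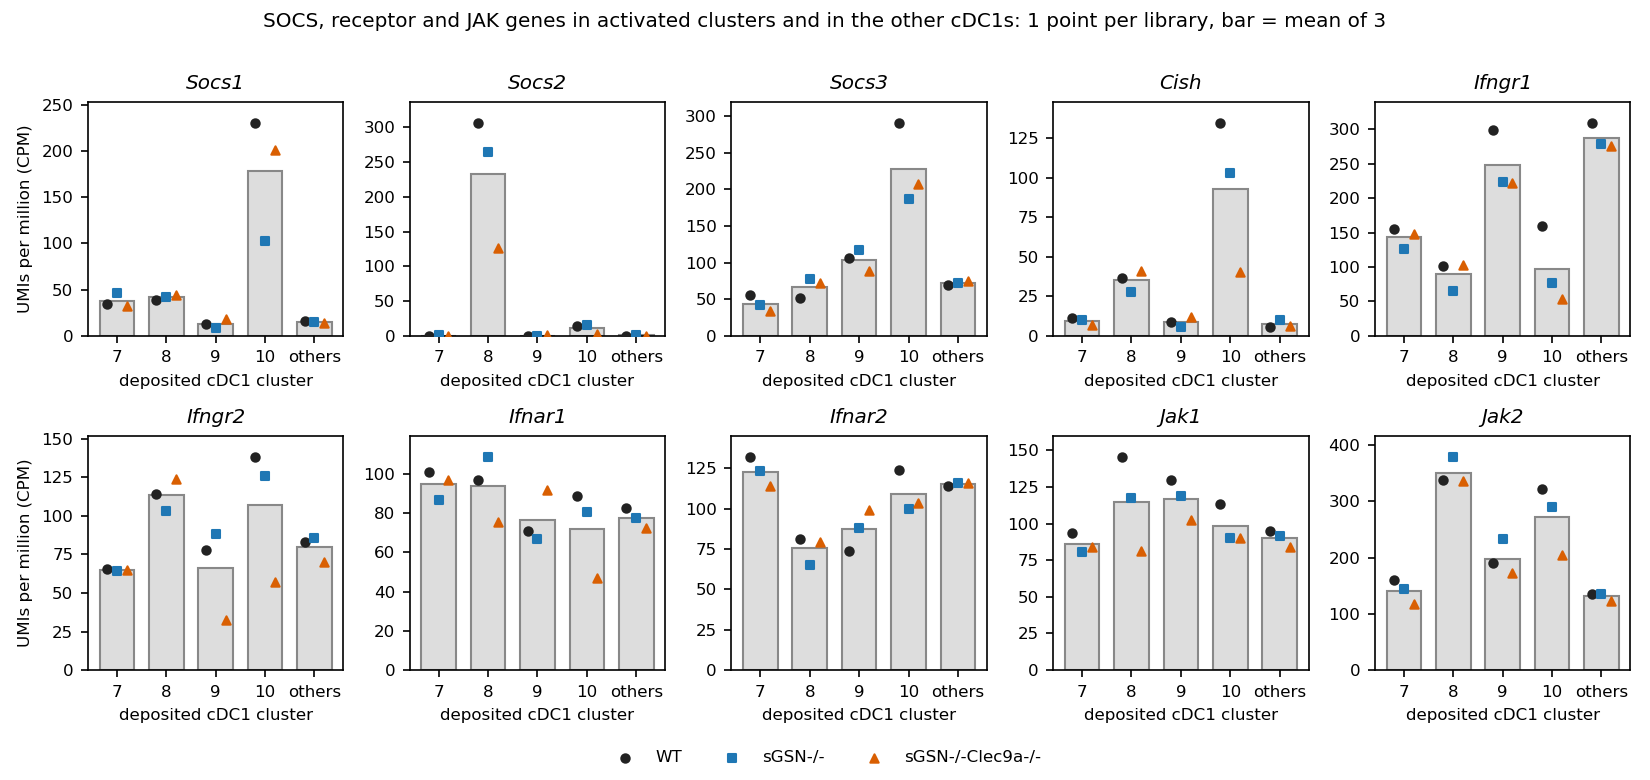
Level of each of the 10 genes (CPM, linear axis from 0) in clusters 7, 8, 9 and 10 and in the other cDC1s, with 1 point per library and the mean as a bar. Socs1, Socs3 and Cish were highest in cluster 10 by mean (178, 228 and 92.6 CPM), Socs2 and Jak2 in cluster 8 (232 and 351 CPM), and Ifngr1 was lowest in clusters 8, 10 and 7.

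Ifngr1 encodes the chain of the interferon gamma receptor that binds the cytokine and carries JAK1. Its level in the other cDC1s was 309 CPM in WT, 278 in sGSN-/- and 276 in sGSN-/-Clec9a-/-. In cluster 8 it was 101 CPM in WT, 64.5 in sGSN-/- and 103 in sGSN-/-Clec9a-/-, in cluster 10 159, 77.3 and 53.6 CPM and in cluster 7 155, 126 and 148 CPM. All 3 clusters lay below the other cDC1s without overlap, and cluster 10 overlapped both others. In cluster 10 the WT library was the high one. Cluster 9, at 299, 224 and 222 CPM, overlapped the other cDC1s. The means descended through clusters 11, 6, 0, 3, 1, 2, 4, 9, 5, 7, 10 and 8, and neighbours overlapped in their libraries except from 11 to 6, from 6 to 0 and from 5 to 7.

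Ifngr2 encodes the second chain of that receptor, which carries JAK2 and limits responsiveness in some T cells. It stood at 83.0 CPM in WT, 85.7 in sGSN-/- and 70.4 in sGSN-/-Clec9a-/- in the other cDC1s. Cluster 8 had 114 CPM in WT, 103 in sGSN-/- and 124 in sGSN-/-Clec9a-/-, above the other cDC1s without overlap. Cluster 10 had 138 CPM in WT, 126 in sGSN-/- and 56.9 in sGSN-/-Clec9a-/-, and its sGSN-/-Clec9a-/- library lay below every library of the other cDC1s while the remaining 2 lay above them. Cluster 9 (77.8, 88.3 and 32.6 CPM) had a low sGSN-/-Clec9a-/- library too, with WT inside the range of the other cDC1s, and cluster 7 (65.8, 64.4 and 65.0 CPM) lay just below the other cDC1s. Ordered by mean, the clusters were 11, 8, 1, 10, 4, 5, 6, 2, 3, 9, 7 and 0; neighbours overlapped at each step.

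Ifnar1 and Ifnar2 encode the chains of the type I interferon receptor, IFNAR2 giving the tighter hold on the cytokine and IFNAR1 carrying TYK2. Ifnar1 stood at 82.6 CPM in WT, 77.6 in sGSN-/- and 72.5 in sGSN-/-Clec9a-/- in the other cDC1s. In cluster 8 it was at 96.9, 109 and 75.7 CPM, in cluster 7 at 101, 86.7 and 96.9 CPM, in cluster 9 at 71.1, 66.7 and 91.8 CPM and in cluster 10 at 88.6, 80.6 and 46.9 CPM. Only cluster 7 of these 4 did not overlap the other cDC1s, lying above them. Across all 12 clusters the means of Ifnar1 ran 11, 6, 7, 8, 1, 9, 0, 5, 3, 10, 2 and 4, and neighbours overlapped in their libraries except from 11 to 6. Ifnar2 stood at 114 CPM in WT, 116 in sGSN-/- and 116 in sGSN-/-Clec9a-/- in the other cDC1s. In cluster 8 it was at 81.4, 65.3 and 79.6 CPM, in cluster 9 at 73.9, 88.3 and 99.2 CPM, in cluster 7 at 132, 123 and 114 CPM and in cluster 10 at 124, 99.9 and 104 CPM. Clusters 8 and 9 lay below the other cDC1s without overlap, and clusters 7 and 10 overlapped them. For Ifnar2 the means ran 11, 1, 4, 7, 2, 5, 10, 3, 0, 9, 6 and 8, and neighbours overlapped in their libraries except from 3 to 0.

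JAK1 serves both interferon receptors, and JAK2 serves the interferon gamma receptor and the receptors of GM-CSF and growth hormone. Jak1 stood at 95.01 CPM in WT, 91.6 in sGSN-/- and 84.0 in sGSN-/-Clec9a-/- in the other cDC1s. In cluster 8 it was at 145 CPM in WT, 117 in sGSN-/- and 81.5 in sGSN-/-Clec9a-/-, in cluster 9 at 129.6, 119 and 102 CPM, in cluster 10 at 113, 90.2 and 90.4 CPM and in cluster 7 at 93.8, 80.5 and 83.8 CPM. Only the libraries of cluster 9 lay apart from the other cDC1s, and in cluster 8 WT was high and sGSN-/-Clec9a-/- low. Jak1 means fell in the order 11, 6, 9, 8, 3, 10, 2, 4, 7, 1, 0 and 5, where neighbours overlapped in their libraries except from 11 to 6 and from 6 to 9. Jak2 stood at 136 CPM in WT, 135 in sGSN-/- and 123 in sGSN-/-Clec9a-/- in the other cDC1s. In cluster 8 it was at 338 CPM in WT, 379 in sGSN-/- and 336 in sGSN-/-Clec9a-/-, in cluster 10 at 322, 290.00 and 204 CPM, in cluster 9 at 190.2, 233 and 172 CPM and in cluster 7 at 161, 144 and 118 CPM. Clusters 8, 10 and 9 lay above the other cDC1s without overlap, and cluster 7 overlapped them. Jak2 means fell in the order 8, 11, 10, 9, 6, 4, 7, 0, 1, 2, 3 and 5, where neighbours overlapped in their libraries except from 6 to 4. Cluster 11, which stood first or next to first for 6 of the 10 genes, held 60 cells with a median of 2348 UMIs and a mitochondrial share of 8.07%, and the part of its depth in those levels was not tested.

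In cluster 10 against the other cDC1s, Socs1, Socs2, Socs3 and Cish were all higher, with Jak2. Ifngr1 was lower. Socs1 rose by 3.57 ± 0.21 on the log2 scale (± standard error), Cish by 3.66 ± 0.33, Socs3 by 1.64 ± 0.16 and Jak2 by 1.04 ± 0.14. Ifngr1 fell by 1.60 ± 0.22. For Socs2, with 10 UMIs in cluster 10 against 36 in the other cDC1s, the ratio of levels was 20.4 (counting interval 9.05 to 42.0), and it entered the test through its counts in cluster 8. These were 6 of the 10 genes, beside 12.7% (7.65% higher and 5.03% lower) of the 7579 genes tested, a share well under that of the genes described here, which were however chosen with results of these data known. By edgeR's quasi-likelihood test (Benjamini-Hochberg adjusted), the adjusted p was 1.44e-11 for Socs1, 2.54e-08 for Cish, 1.22e-07 for Socs3, 0.00756 for Socs2, 1.80e-05 for Ifngr1 and 1.22e-05 for Jak2, each under the threshold of 0.05 and with its direction in 3 of 3 libraries. The clusters were called on the same counts, so these values set each change against the spread between sums and do not show that the clusters exist. Ifngr2 (107 against 79.7 CPM on average), Ifnar1 (72.0 against 77.5), Ifnar2 (109 against 115) and Jak1 (98.0 against 90.2) did not pass. Socs2 was no longer past the threshold without WT (edgeR quasi-likelihood, Benjamini-Hochberg adjusted p = 0.1001) or without sGSN-/- (0.153), where its alternatives ranged from 1.43e-10 to 0.153, and Ifngr2 passed without sGSN-/-Clec9a-/- (log2 0.65). The genes past the threshold numbered 961, but 496 without WT and 512 without sGSN-/-, and the share of them that were higher, 60.4%, was 72.3% with DESeq2.

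Markers of some other cell types differed between the libraries of cluster 10. The 6 activated cDC markers summed to 510.3 CPM in WT, 35.4 in sGSN-/- and 70.3 in sGSN-/-Clec9a-/-, against 14.1, 11.7 and 10.6 CPM in the other cDC1s; 4 of the 6 were above the other cDC1s, Ccl22 was the most abundant, and Fscn1 and Cacnb3 were at 0. The 6 cDC2 markers summed to 266 CPM in WT, 806 in sGSN-/- and 201 in sGSN-/-Clec9a-/-, with Cd209a the most abundant and 3 of 6 above the other cDC1s, where the sum was 137, 139 and 124 CPM. The 7 NK cell markers summed to 337, 380.2 and 224 CPM, 3 of 7 above, mostly Klrk1, with Prf1 and Eomes at 0, against 167, 189.8 and 163 CPM. The 5 proliferating markers summed to 70.9, 19.3 and 141 CPM, against 45.3, 50.2 and 45.2 CPM (Stmn1 the most abundant, 3 of 5 above, none at 0), so that the libraries were far apart. The plasmacytoid markers summed to 389.8, 280.3 and 438 CPM, against 276, 294 and 279.9 CPM (mostly Bst2, 1 of 6 above, Cox6a2, Ly6d and Klk1 at 0), and the T cell markers to 3.54, 12.9 and 13.4 CPM, against 3.32, 6.01 and 3.89 CPM (Trbc2 the most abundant, 4 of 6 above, Cd3d and Cd3g at 0). Their part in the levels of Socs1, Socs2, Socs3 and Cish was not tested. Socs1, Socs3 and Cish were past the threshold in cluster 10 with each library left out in turn, with log2 changes over all alternatives of 3.19 to 3.85, 1.45 to 1.75 and 3.18 to 3.97.

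In cluster 8 the pattern of the inhibitors was another: Socs2 was by far the most changed, Socs1 and Cish were higher, and Socs3 stood at 67.1 against 72.3 CPM on average and did not pass the test. Socs2 rose by 8.94 ± 0.26 on the log2 scale, Cish by 2.42 ± 0.29 and Socs1 by 1.70 ± 0.22. Among the receptor chains Ifngr1 fell by 1.52 ± 0.18 and Ifnar2 by 0.43 ± 0.12, while Ifngr2 rose by 0.70 ± 0.17 and Ifnar1 by 0.53 ± 0.13. Jak2 rose by 1.64 ± 0.12 and Jak1 by 0.60 ± 0.13. These were 9 of the 10 genes, where 52.5% (27.3% higher and 25.2% lower) of the 7579 genes tested passed, so most genes differed in this cluster and the count alone says little about these 10. Socs2 passed the filter on low counts through cluster 8 itself, so its adjusted p is no separate support for its rise, and the 9 include it. Adjusted p values from edgeR's quasi-likelihood test (Benjamini-Hochberg adjusted) were 3.54e-18 for Socs2, 5.32e-11 for Jak2, 2.32e-07 for Ifngr1, 2.81e-07 for Cish, 5.39e-07 for Socs1, 0.000401 for Jak1, 0.00134 for Ifngr2, 0.00204 for Ifnar1 and 0.00603 for Ifnar2; Jak1 was higher in 2 of 3 libraries and the others kept their direction in 3 of 3. With cells thinned, Ifngr2 (log2 0.53) and Ifnar2 (log2 -0.36) did not pass (edgeR quasi-likelihood, Benjamini-Hochberg adjusted p = 0.0558 and 0.102). Without sGSN-/-, Ifnar1 (adjusted p = 0.128, alternatives 7.17e-06 to 0.128) and Ifnar2 (0.155, alternatives 0.000252 to 0.155) were no longer past the threshold of edgeR's quasi-likelihood test (Benjamini-Hochberg adjusted), and Ifnar1 was not without the trimmed-mean (TMM) scaling of library sizes either (0.0619). Without that scaling the median change of all genes moved by -0.21 and the share of called genes that were higher from 52.0% to 36.8%, and the directions of the 9 genes did not turn.

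The same cluster carried the activated cDC markers at 6999.7 CPM in WT, 5954 in sGSN-/- and 3918 in sGSN-/-Clec9a-/-, all 6 above the other cDC1s and Ccr7 the most abundant. The monocyte or macrophage markers summed to 604, 59.8 and 73.7 CPM, against 67.0, 46.6 and 60.0 CPM in the other cDC1s. Apoe was the most abundant of them, and 6 of 7 were above. C1qa, a gene of macrophages, stood at 134 CPM in WT, 5.51 in sGSN-/- and 5.82 in sGSN-/-Clec9a-/-, so that WT stood apart, against 8.06, 5.02 and 7.13 CPM in the other cDC1s. The cDC2 markers were lower, at 119, 27.6 and 60.2 CPM against 137, 139 and 124 CPM (2 of 6 above). The T cell markers summed to 16.5, 32.3 and 3.88 CPM, against 3.32, 6.01 and 3.89 CPM (Cd8a the most abundant, 6 of 6 above and none at 0), and the NK cell markers to 185, 352 and 175 CPM, against 167, 189.8 and 163 CPM (mostly Klrk1, 6 of 7 above and none at 0), both highest in sGSN-/-. The proliferating markers summed to 108, 116 and 32.99 CPM, against 45.3, 50.2 and 45.2 CPM (Mki67 the most abundant, 4 of 5 above and none at 0), with sGSN-/-Clec9a-/- apart. The plasmacytoid markers stood at 391, 517 and 309 CPM, against 276, 294 and 279.9 CPM (mostly Bst2, 4 of 6 above and none at 0), and the fibroblast or tumour markers at 8.72, 4.72 and 15.5 CPM, against 1.68, 1.66 and 0.823 CPM (Sparc the most abundant, 5 of 5 above and none at 0). Of its 255 cells, 8 (3.14%) were taken as doublets, against 1 in cluster 10 and 0 in clusters 7 and 9. With doublets left out, each gene past the threshold in cluster 8 against the other cDC1s kept its call. The part of the other cells was not tested.

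Cluster 7 combined a higher Socs1 with a lower Socs3. Socs1 rose by 1.46 ± 0.17 on the log2 scale and Socs3 fell by 0.60 ± 0.14. Ifngr1 fell by 0.90 ± 0.16 and Ifnar1 rose by 0.39 ± 0.12. Neither kinase passed the test: Jak1 stood at 86.0 against 90.2 CPM and Jak2 at 141 against 131 CPM on average. Cish (9.40 against 7.33 CPM), Ifngr2 (65.1 against 79.7) and Ifnar2 (123 against 115) did not pass either, and for Socs2, with 2 UMIs, the ratio of levels was 0.593 (counting interval 0.0691 to 2.30). The 4 genes past the threshold of 10 compare with 15.5% (10.7% higher and 4.82% lower) of the 7579 genes tested, with the choice of genes made as before. By edgeR's quasi-likelihood test (Benjamini-Hochberg adjusted), the adjusted p was 3.96e-07 for Socs1, 0.000142 for Ifngr1, 0.00427 for Socs3 and 0.0215 for Ifnar1, each with its direction in 3 of 3 libraries. Socs3 was no longer past the threshold of edgeR's quasi-likelihood test (Benjamini-Hochberg adjusted) without sGSN-/- (adjusted p = 0.0821) or without sGSN-/-Clec9a-/- (0.0860, alternatives 9.65e-05 to 0.0860), nor Ifnar1 without WT (0.272), without sGSN-/- (0.114) or without TMM scaling (0.123, alternatives 0.00166 to 0.272), so that 2 of the 10 genes passed without sGSN-/-. Over all genes 1178 passed, and 656 without WT or without sGSN-/-. Without TMM scaling the median moved by -0.10 and the share of called genes that were higher from 69.0% to 49.3%.

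In cluster 7 the NK cell markers summed to 289 CPM in WT, 263 in sGSN-/- and 256 in sGSN-/-Clec9a-/-, against 167, 189.8 and 163 CPM in the other cDC1s (Klrk1 the most abundant, 4 of 7 above and none at 0). The plasmacytoid markers summed to 796, 839 and 844 CPM, against 276, 294 and 279.9 CPM (mostly Bst2, 1 of 6 above, with Cox6a2, Ly6d and Klk1 at 0). The monocyte or macrophage markers summed to 115, 81.9 and 131 CPM, against 67.0, 46.6 and 60.0 CPM (2 of 7 above). The activated cDC markers stood at 27.2, 35.0 and 14.8 CPM, against 14.1, 11.7 and 10.6 CPM (4 of 6 above). The proliferating markers stood at 69.7, 70.1 and 58.1 CPM, against 45.3, 50.2 and 45.2 CPM (4 of 5 above). The cDC2 markers were lower, at 91.2, 80.0 and 63.8 CPM against 137, 139 and 124 CPM (0 of 6 above). The part of these markers in the levels of Socs1, Socs3, Ifngr1 and Ifnar1 in cluster 7 was not tested.

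Cluster 9 was the least altered of the 4. Jak2 rose by 0.62 ± 0.13 and Socs3 by 0.56 ± 0.15 on the log2 scale. Jak1 stood at 117 against 90.2 CPM on average and Ifnar2 at 87.1 against 115 CPM, just outside the threshold. Socs1 (13.1 against 14.7 CPM), Cish (8.63 against 7.33), Ifngr1 (248 against 288), Ifngr2 (66.2 against 79.7) and Ifnar1 (76.5 against 77.5) did not pass. For Socs2, with 1 UMI, the ratio was 0.802 (counting interval 0.0198 to 4.76). The count of 2 in 10 stands beside 8.71% (5.96% higher and 2.74% lower) of the 7579 genes tested, too near it to be read as a result about these genes. There edgeR's quasi-likelihood test (Benjamini-Hochberg adjusted) gave adjusted p values of 0.00229 for Jak2 and 0.0228 for Socs3, both higher in 3 of 3 libraries, and of 0.0518 for Jak1 (log2 0.42, higher in 3 of 3) and 0.0544 for Ifnar2 (log2 -0.39, lower in 3 of 3). With the library as a block Jak1 (adjusted p = 0.0257) and Ifnar2 (0.0381) passed the same edgeR quasi-likelihood test with its Benjamini-Hochberg threshold, and Jak1 passed without sGSN-/-Clec9a-/- (0.0375; alternatives 0.00602 to 0.355 for Jak1 and 0.0214 to 0.426 for Ifnar2). Socs3 lost its call without WT (edgeR quasi-likelihood, Benjamini-Hochberg adjusted p = 0.175) and without sGSN-/- (0.266, alternatives 0.00486 to 0.266), and Jak2 without sGSN-/- (0.109, alternatives 1.16e-06 to 0.109), so that between 0 and 3 of the 10 genes passed with 1 library left out. Over all genes 660 passed, 277 without WT and 305 without sGSN-/-.

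The proliferating markers of cluster 9 summed to 121 CPM in WT, 108 in sGSN-/- and 121 in sGSN-/-Clec9a-/-, against 45.3, 50.2 and 45.2 CPM in the other cDC1s (Stmn1 the most abundant, 4 of 5 above and none at 0). The activated cDC markers summed to 45.1, 61.3 and 34.0 CPM, against 14.1, 11.7 and 10.6 CPM (mostly Ccl22, 4 of 6 above, with Fscn1 at 0). What these cells add to Jak2 and Socs3 there was not tested.

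**Figure D2:**
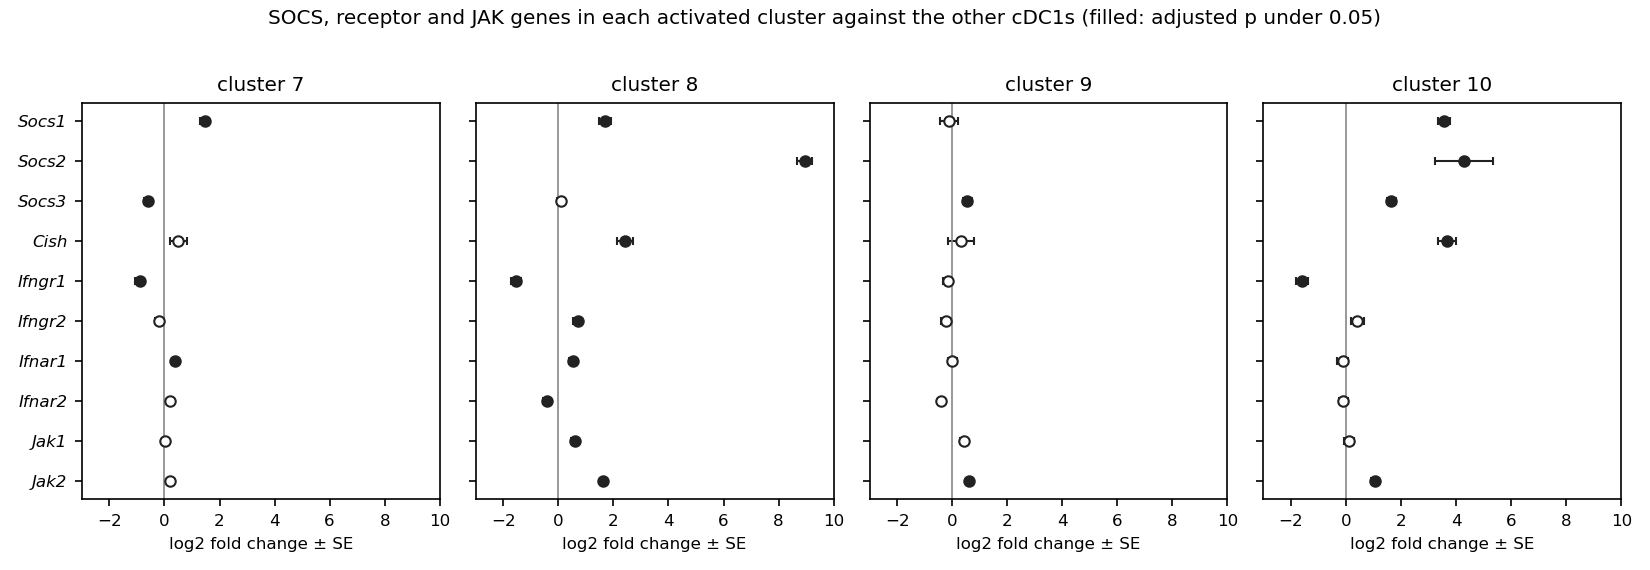
Log2 fold change of each gene in clusters 7, 8, 9 and 10 against the other cDC1s, from the edgeR fit over 15 sums, with its standard error as a bar and filled points for genes past the adjusted threshold of 0.05. Socs2 is left out for clusters 7 and 9, where it had 2 and 1 UMIs. Socs1 was past the threshold in clusters 7, 8 and 10 (1.46, 1.70 and 3.57), Ifngr1 in the same 3 (-0.90, -1.52 and -1.60) and Jak2 in clusters 8, 9 and 10.

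Set directly against each other, clusters 8 and 10 differed in which inhibitor they carried. Socs2 was higher in cluster 8, and Socs1, Socs3 and Cish were higher in cluster 10. From cluster 10 to cluster 8, Socs2 rose by 4.65 ± 0.43 on the log2 scale, Socs1 fell by 1.87 ± 0.23, Socs3 fell by 1.55 ± 0.19 and Cish fell by 1.24 ± 0.33. Ifnar1 rose by 0.65 ± 0.21 and Jak2 rose by 0.60 ± 0.14. The ratio of Socs2 levels was 22.6 (counting interval 12.2 to 47.4). Socs2 passed the filter through cluster 8, so its adjusted p is no separate support for the difference. The count was 6 of 10, beside 30.3% (16.9% higher and 13.4% lower) of the 7579 genes tested. By edgeR's quasi-likelihood test (Benjamini-Hochberg adjusted), the adjusted p was 1.60e-08 for Socs2, 1.36e-06 for Socs1, 1.49e-06 for Socs3, 0.00660 for Cish, 0.00275 for Jak2 and 0.0229 for Ifnar1; Cish was lower in 2 of 3 libraries and the others kept their direction in 3 of 3. Ifngr1, at 101, 64.5 and 103 CPM against 159, 77.3 and 53.6 CPM, had no stable direction: its log2 change of 0.08 turned to -0.14 without TMM scaling and to -0.26 without sGSN-/-Clec9a-/-. Jak1 (115 against 98.0 CPM on average), Ifngr2 (114 against 107) and Ifnar2 (75.4 against 109) did not pass, though Jak1 did with the library as a block (log2 0.49) and without sGSN-/-Clec9a-/- (log2 0.62). In the same edgeR quasi-likelihood test with its Benjamini-Hochberg threshold, Cish was no longer past the threshold without WT (adjusted p = 0.106) or without sGSN-/- (0.106, alternatives 1.18e-05 to 0.106), Ifnar1 was not without any 1 library (0.0779, 0.138 and 0.0728 without WT, sGSN-/- and sGSN-/-Clec9a-/-, alternatives 0.0109 to 0.351), and Ifnar1 (0.146) and Jak2 (0.0768, alternatives 0.000123 to 0.0768) were not without TMM scaling. Over all genes 2296 passed, and 1484 without sGSN-/-. The unscaled fit moved the median by -0.21 and the share of called genes that were higher from 55.9% to 37.2%.

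Clusters 10 and 7, which both had high Socs1, were apart in the other inhibitors. Cluster 10 was the higher in Socs1 by 2.10 ± 0.21 on the log2 scale, in Socs3 by 2.24 ± 0.19, in Cish by 3.15 ± 0.37 and in Jak2 by 0.83 ± 0.15. Socs2 had 10 UMIs in cluster 10 and 2 in cluster 7, a ratio of levels of 34.5 (counting interval 7.35 to 324), and was tested through its counts in cluster 8. This made 5 of 10, beside 10.1% (3.92% higher and 6.17% lower) of the 7579 genes tested. In edgeR's quasi-likelihood test (Benjamini-Hochberg adjusted), the adjusted p was 2.39e-08 for Socs3, 4.41e-07 for Socs1, 2.79e-06 for Cish, 0.000400 for Jak2 and 0.0232 for Socs2, each higher in 3 of 3 libraries. In cluster 10 Ifngr1 stood at 159, 77.3 and 53.6 CPM, and in cluster 7 at 155, 126 and 148 CPM, lower in 2 of 3 libraries (log2 -0.70, edgeR quasi-likelihood, Benjamini-Hochberg adjusted p = 0.0671, 0.0232 with the library as a block and 0.0235 without WT, alternatives 0.00212 to 0.486). Socs2 was not past the threshold without WT (edgeR quasi-likelihood, Benjamini-Hochberg adjusted p = 0.1996) or without sGSN-/- (0.165, alternatives 1.89e-05 to 0.220), and Ifngr2 (107 against 65.1 CPM on average) passed without sGSN-/-Clec9a-/- (log2 0.91). Ifnar1 (72.0 against 94.8 CPM), Ifnar2 (109 against 123) and Jak1 (98.0 against 86.0) did not pass. Over all genes 765 passed, 353 without WT and 356 without sGSN-/-. The share that were higher was 38.8%, 54.0% with DESeq2 and 54.6% without TMM scaling, where the median moved by 0.11.

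Against cluster 9, cluster 8 was higher in Cish by 2.10 ± 0.45, in Socs1 by 1.82 ± 0.34, in Jak2 by 1.02 ± 0.13, in Ifngr2 by 0.93 ± 0.22 and in Ifnar1 by 0.51 ± 0.17 on the log2 scale, and Ifngr1 fell by 1.36 ± 0.20. Socs2 had 716 UMIs in cluster 8 and 1 in cluster 9, a ratio of levels of 577 (counting interval 103 to 22830.2). It was tested because cluster 8 itself carried it past the filter on low counts, so its adjusted p is no separate support for the difference. The count was 7 of 10, beside 38.8% (20.9% higher and 18.0% lower) of the 7579 genes tested. From edgeR's quasi-likelihood test (Benjamini-Hochberg adjusted) came an adjusted p of 9.21e-12 for Socs2, 1.50e-06 for Jak2, 6.74e-06 for Ifngr1, 0.000124 for Socs1, 0.000691 for Cish, 0.00156 for Ifngr2 and 0.0175 for Ifnar1; Ifnar1 was higher in 2 of 3 libraries and the others kept their direction in 3 of 3. Socs3 (67.1 against 104 CPM on average), Ifnar2 (75.4 against 87.1) and Jak1 (115 against 117) did not pass. With cells thinned, the log2 change was 1.62 for Cish, 0.42 for Ifngr2 and 0.29 for Ifnar1. None of these then passed (edgeR quasi-likelihood, Benjamini-Hochberg adjusted p = 0.0707, 0.330 and 0.426). Ifnar1 also lost its call without WT (edgeR quasi-likelihood, Benjamini-Hochberg adjusted p = 0.182), without sGSN-/- (0.348) and without TMM scaling (0.129, alternatives 0.00138 to 0.426). Without it the fit moved the median by -0.17 and the share of called genes that were higher from 53.7% to 38.9%.

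Cluster 7 against cluster 9 was higher in Socs1 by 1.59 ± 0.31 and in Ifnar2 by 0.59 ± 0.13 on the log2 scale, while Socs3 fell by 1.16 ± 0.18, Ifngr1 fell by 0.74 ± 0.17 and Jak2 fell by 0.41 ± 0.13, which made 5 of 10 beside 20.3% (11.7% higher and 8.56% lower) of the 7579 genes tested. There edgeR's quasi-likelihood test (Benjamini-Hochberg adjusted) gave adjusted p values of 3.89e-05 for Socs3, 0.000624 for Socs1, 0.00227 for Ifnar2, 0.00321 for Ifngr1 and 0.0338 for Jak2, each with its direction in 3 of 3 libraries. Jak1 stood at 86.0 against 117 CPM on average and did not pass, but did with the library as a block (log2 -0.37), without TMM scaling (-0.45) and without sGSN-/-Clec9a-/- (-0.47), as did Ifnar1 (94.8 against 76.5 CPM) in the last of these (log2 0.49). Cish (9.40 against 8.63 CPM) and Ifngr2 (65.1 against 66.2) did not pass, and Socs2 had 2 and 1 UMIs. Ifnar2 was no longer past the threshold of edgeR's quasi-likelihood test (Benjamini-Hochberg adjusted) without WT (adjusted p = 0.190, alternatives 0.000186 to 0.190), nor Jak2 without WT (0.0550), sGSN-/- (0.271) or sGSN-/-Clec9a-/- (0.0708, alternatives 0.00360 to 0.271), so that 3 of 10 passed without WT. With cells thinned, Ifngr1 had a log2 change of -0.41 and did not pass (edgeR quasi-likelihood, Benjamini-Hochberg adjusted p = 0.199). Over all genes 1538 passed, 792 without WT and 855 without sGSN-/-. The comparisons of clusters 7 to 10 share sums, those against the other cDC1s all sharing the sums of the other cDC1s, so they are not independent of one another.

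Among the cells that were not activated, clusters 4 and 1, called early, were set against clusters 5, 2, 3, 6 and 0, called resting. Ifngr2 stood at 117, 113 and 86.8 CPM in the early against 72.1, 74.0 and 64.2 CPM in the resting cells, without overlap. Cish stood at 9.60, 14.2 and 7.47 CPM in the early against 4.36, 7.95 and 6.13 CPM in the resting cells, with overlap, and Ifnar2 at 142, 124 and 137 CPM in the early against 105, 111 and 109 CPM in the resting cells, without. These 3 rose, Ifngr2 by 0.60 ± 0.08, Cish by 0.81 ± 0.24 and Ifnar2 by 0.32 ± 0.07 on the log2 scale. Socs1 stood at 13.3 against 15.3 CPM and Socs3 at 69.4 against 73.3 CPM on average, and they did not pass, nor did Ifngr1 (282 against 289 CPM), Ifnar1 (79.1 against 76.5), Jak1 (85.5 against 91.6) or Jak2 (138 against 128). Socs2, with 16 and 20 UMIs, did not pass the filter on low counts. The count was 3 of the 9 tested, beside 38.5% (19.1% higher and 19.4% lower) of the 10696 genes tested, which is no more than the background. The adjusted p, from edgeR's quasi-likelihood test (Benjamini-Hochberg adjusted), was 7.91e-05 for Ifngr2, 0.00292 for Ifnar2 and 0.0155 for Cish, each higher in 3 of 3 libraries. Without WT only Ifngr2 of the 3 passed the same edgeR quasi-likelihood test with its Benjamini-Hochberg threshold (Cish, adjusted p = 0.0923, alternatives 2.06e-05 to 0.0923; Ifnar2, 0.0707, alternatives 7.36e-05 to 0.0707), and 2579 genes passed in place of 4114. The cDC2 markers summed to 304, 263 and 265 CPM in the early and 82.8, 85.0 and 72.7 CPM in the resting cells, all 6 above (Cd300a the most abundant, none at 0). Those of monocytes or macrophages stood at 99.4, 61.0 and 100 CPM in the early and 56.1, 39.6 and 45.0 CPM in the resting cells. The cDC1 markers were lower, at 843, 899 and 807 CPM in the early and 1436, 1482 and 1336 CPM in the resting cells. Of the 512 cells of cluster 4, 41 (8.01%) were taken as doublets, and 15 of the 820 of cluster 1 (1.83%). With doublets left out Cish rose by 0.68 ± 0.26 on the log2 scale and was just outside the threshold (edgeR quasi-likelihood, Benjamini-Hochberg adjusted p = 0.0529). The part of the other cells was not tested.

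In single cells the same genes were seen as shares of cells with at least 1 UMI, with exact Clopper-Pearson 95% intervals and, to level depth, after each cell was thinned to 3930 UMIs with shallower cells left out (11 in cluster 7, 57 in cluster 8, 4 in cluster 9, 6 in cluster 10 and 213 of the other cDC1s). Cells of the 3 libraries were pooled for these shares, so the intervals cover counting error only. Socs2 was found in 152 of 255 cells of cluster 8, 59.6% (53.3 to 65.7), or 50.5% after thinning. Among the other cDC1s it was found in 31 of 4891, 0.634% (0.431 to 0.898), or 0.257% after thinning. Their median depths were 10867 and 13514 UMIs, so the shallower cells had the higher share. No cell type of the sort is known to lack Socs2. The C1q-led macrophage-like cluster (median 14927 UMIs) held it in 12.4% of cells (4.63% thinned) and the NK cell-like cluster (median 6879 UMIs) in 10.7% (6.05%). Socs1 was found in 53 of 76 cells of cluster 10 (median 11132 UMIs), 69.7% (58.1 to 79.8), or 38.6% thinned, against 14.6% (5.49% thinned) of the other cDC1s, 12.1% (3.77%) of the macrophage-like and 34.7% (21.0%) of the NK cell-like cells. The share in clusters 7 and 8 was 26.3% and 25.9% (12.9% and 13.6% thinned), below that of the NK cell-like cells, whose depth was lower.

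Socs3 was found in 77.6% of cluster 10 cells (48.6% thinned) and 41.5% of the other cDC1s (20.7%), with 65.4% of the macrophage-like cells (34.6%) between them. Cish was found in 47.4% of cluster 10 cells (27.1% thinned), 21.6% of cluster 8 cells (8.59%) and 7.12% of the other cDC1s (2.54%), and the macrophage-like cells, at 21.9% (7.81%), were level with cluster 8. Ifngr1 was found in 37.3% of cluster 8 cells (19.7% thinned), 52.6% of cluster 10 cells (27.1%) and 73.9% of cluster 7 cells (42.8%), against 90.9% of the other cDC1s (64.0%) and 96.7% of the NK cell-like cells (88.5%). Ifngr1 was thus seen in fewer cells of these 3 clusters also at equal depth. Jak2 was found in 88.6% of cluster 8 cells (75.3% thinned) and 89.5% of cluster 10 cells (64.3%), against 73.9% of the other cDC1s (38.8%) and 23.9% of the NK cell-like cells (13.4%). Ifngr2 was rarest in the NK cell-like cells, at 2.27% (1.36% thinned), against 59.2% in cluster 8 (31.8%) and 58.3% in the other cDC1s (25.8%).

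The inhibitors were also counted jointly in single cells. In cluster 8, 53 of the 66 cells with Socs1 also had Socs2 (80.3%, where 59.6% of all cells of the cluster had Socs2), as did 38 of the 55 cells with Cish (69.1%). The share with Socs2 among the 85 cells with Socs3 was 60.0%, that of the cluster. Cish was found in 31.8% of the cells with Socs1 and 24.7% of those with Socs3 there, against 21.6% of the cluster, and Socs3 in 43.9% of those with Socs1, against 33.3%. In cluster 10, 45 of the 53 cells with Socs1 also had Socs3 (84.9%, against 77.6% of the cluster), 27 also had Cish (50.9%, against 47.4%) and 3 also had Socs2 (5.66%, against 7.89%). There 32 of the 36 cells with Cish had Socs3 (88.9%), and of the 6 cells with Socs2, 5 had Cish and 6 had Socs3. Cells differ in depth, which raises joint detection of any genes, and its part was not tested.

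The other genes of the pathway give the setting of the 10. Lists among them are described by counts beside the background shares given above (15.5% in cluster 7, 52.5% in cluster 8, 8.71% in cluster 9 and 12.7% in cluster 10) and beside medians over all genes tested of -0.0186, -0.0348, -0.00216 and -0.0220 on the log2 scale. Of the other JAK and STAT genes only single genes are given, without a count. Stat4 (4.99, 434 against 16.1 CPM) and Stat5a (3.03, 98.7 against 14.0 CPM), the STAT that GM-CSF uses, were higher in cluster 8. In cluster 7, Stat2 (1.68, 199 against 66.9 CPM) and Irf9 (0.62, 116 against 81.2 CPM) were higher, and in cluster 10 Stat2 (1.42, 180.2 against 66.9 CPM). Stat5a was also higher in cluster 10 (1.21). It was not past the threshold there without WT or without sGSN-/- (edgeR quasi-likelihood, Benjamini-Hochberg adjusted p = 0.320 and 0.156). In cluster 9, Stat6 was higher (0.64, 55.5 against 37.1 CPM), but not past the threshold without WT, without sGSN-/- or with cells thinned (edgeR quasi-likelihood, Benjamini-Hochberg adjusted p = 0.209, 0.153 and 0.379).

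Of the other inhibitors of the pathway, 13 of 15 were tested. Cluster 7 had 2 of 13 tested genes higher and 0 lower (median 0.12), Usp18 (3.29, 299 against 32.8 CPM), which displaces JAK1 from IFNAR2, and the phosphatase gene Ptpn6 (0.51), the median turning to -0.01 without WT. Cluster 8 had 3 of 13 tested genes higher and 2 lower (median 0.08, or -0.13 without TMM scaling), with Usp18 (1.14, higher in 2 of 3 libraries) and Ptpn2 (0.90), whose product dephosphorylates STATs. Cluster 10 had 3 of 13 tested genes higher and 0 lower (median 0.18), Usp18 (1.36), Ptpn2 (1.12) and Ptpn1 (0.49), or 1 without WT and 2 without either other library. In edgeR's quasi-likelihood test (Benjamini-Hochberg adjusted), Usp18 was not past the threshold without WT (adjusted p = 0.0610) or sGSN-/-Clec9a-/- (0.0531) or with cells thinned (0.0633), nor Ptpn1 without WT (0.0723) or sGSN-/- (0.245). Cluster 9 had 1 of 13 tested genes higher and 0 lower (median 0.20), Pias1 (0.64), a call lost without any 1 library (edgeR quasi-likelihood, Benjamini-Hochberg adjusted p = 0.0792, 0.117 and 0.174 without WT, sGSN-/- and sGSN-/-Clec9a-/-). From cluster 10 to cluster 8, Ptpn1 fell by 0.97 and Ptprc by 0.75 with no gene of the list higher.

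Of the other receptors that signal through JAKs, 18 of 28 were tested. Cluster 8 had 12 of 18 tested genes higher and 2 lower (median 1.36), led by Il7r (5.48, 63.6 against 1.57 CPM), with Il2ra (4.83, 28.6 against 1.23 CPM). Cluster 10 had 6 of 18 tested genes higher and 0 lower (median 0.37), with Il2rg (2.28), the chain shared by the interleukin 2 family, and Il10ra (2.24), or 4 higher without WT and without sGSN-/-. Il2rg lost this call with cells thinned (edgeR quasi-likelihood, Benjamini-Hochberg adjusted p = 0.130). Cluster 7 had 4 of 18 tested genes higher and 2 lower (median 0.08), led by Il10ra (1.56), and 2 higher with 0 lower without sGSN-/-, 4 and 0 without WT and 4 and 1 without sGSN-/-Clec9a-/-, with a median of -0.02 without TMM scaling. Cluster 9 had 2 of 18 tested genes higher and 1 lower (median 0.22, or -0.05 without WT), Il2rg (1.26), Il10ra (1.06) and Csf2rb (-0.81), each of which lost its call under an alternative. Il2rg did so without sGSN-/- (edgeR quasi-likelihood, Benjamini-Hochberg adjusted p = 0.0810), Il10ra with cells thinned (0.0754) and Csf2rb with cells thinned (0.178) and with clusters called without the 10 genes (0.647, log2 -0.16; at resolution 2, 0.780, log2 -0.11), so no fall of Csf2rb is read there. Of 22 ligand genes only Osm, Il15 and Il6 were tested, and Ifng, Csf2 and the type I interferon genes did not pass the filter on low counts. All 3 were higher in cluster 8 (Osm 3.59, Il15 2.67, Il6 2.15, median 2.67), though Il6 not without sGSN-/- (edgeR quasi-likelihood, Benjamini-Hochberg adjusted p = 0.0795). In cluster 7 there were 2 (Il15 2.40, Il6 1.76, median 1.76), or 1 of 2 tested without WT. Cluster 10 also had 2 (Il6 3.13, Osm 2.34, median 2.34), or 0 of 2 tested without WT and 1 of 3 without either other library. There were 0 in cluster 9 (median 1.18, or -2.94 without WT), where Osm had no UMI.

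Genes known to answer to the interferons were read in the same way. Of 11 interferon gamma response genes, cluster 10 had 9 higher and 0 lower (median 4.7996), led by Iigp1 (7.53, 113 against 0.579 CPM) and the chemokine gene Cxcl9 (7.45, 4832 against 27.5 CPM). Cluster 7 had 9 higher and 0 lower (median 2.74), cluster 8 had 6 higher and 2 lower (median 2.74, Cd274 5.27, Gbp5 5.16), and cluster 9 had 3 higher and 0 lower (median 0.12, Cxcl10 3.91, Cxcl9 3.58 and Irf1 2.01). From cluster 10 to cluster 8, 9 of the 11 were lower and 1 higher (median -1.80), the latter not without WT, without sGSN-/- or without TMM scaling. Of 7 type I interferon response genes tested of 8, all 7 were higher in cluster 7 (median 4.79, Ifit3 5.68 with 154 against 3.34 CPM, Ifit1 5.25) and in cluster 8 (median 2.97, Oasl1 4.92). Cluster 10 had 6 higher (median 1.81, Oasl1 4.03), or 3 without WT and 4 without sGSN-/-Clec9a-/-, and cluster 9 had 0 (median 0.22), or 1 without WT. Of 5 STAT5 targets, all 5 were higher in cluster 8 (median 3.59, Il2ra 4.83, Ccnd2 3.59). Cluster 10 had 3 higher (median 0.55, Ccnd2 3.36), or 1 without sGSN-/- and 2 without either other library. Cluster 9 had 2 (median 0.54, Pim1 0.85, and Ccnd2 0.91, which did not pass without WT, edgeR quasi-likelihood, Benjamini-Hochberg adjusted p = 0.0691), where the median was -0.38 without WT. Cluster 7 had 1 (median 0.19, or -0.20 without sGSN-/-, Ccnd2 1.17), with none lower in any of the 4. Il2ra and Osm stand in 2 of these lists each, as receptor or ligand and as STAT5 target. The study names Cxcl9 and Cxcl10 among the genes enriched in cluster 10, and Ifit2 and Isg15 in cluster 7, and these genes stand in the interferon lists. The counts of those clusters were thus partly fixed when the clusters were called. No difference between clusters in these counts was tested, and nothing particular to a list is read from them.

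Across the 33 sums of clusters 0 to 10 in 3 libraries, the genes whose log2 levels ran most nearly with each inhibitor were found by Pearson's correlation among 8010 genes. The sums share libraries and depth, and the values are a description. For Socs1 they were Batf2 (0.886), Apobec3 (0.884), Gbp5 (0.867), Tgtp1 (0.835) and Irf1 (0.833), several of which are interferon-induced. Gbp5, for example, averaged 45.6 CPM in cluster 8 and 163 in cluster 10. For Socs2 they were Rogdi (0.944), Ktn1 (0.941), Snn (0.938), Glipr2 (0.930) and Pxmp2 (0.928). Snn averaged 73.0 CPM in cluster 8 and 6.98 in cluster 10. For Socs3 they were Surf6 (0.790), Bcl3 (0.786), Gadd45g (0.779), Flvcr1 (0.738) and Ffar2 (0.717), and Gadd45g averaged 46.4 CPM in cluster 8 and 193 in cluster 10. For Cish they included Ccnd2 (0.860) and Cd274 (0.857), and Ccnd2 averaged 491 CPM in cluster 8 and 491 in cluster 10.

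Between genotypes each value rests on 1 library, so the differences have no replicate check, and the intervals are exact Poisson 95% intervals that cover counting error only. Over all cDC1s, Socs2 stood at 10.2 CPM (9.15 to 11.4) in WT, 15.2 (13.7 to 16.9) in sGSN-/- and 3.40 (2.66 to 4.27) in sGSN-/-Clec9a-/-. Cish stood at 8.26 CPM (7.31 to 9.31) in WT, 11.9 (10.5 to 13.4) in sGSN-/- and 8.01 (6.86 to 9.30) in sGSN-/-Clec9a-/-. For both, sGSN-/- was the high library, and for Socs2 the sGSN-/-Clec9a-/- library was the low one, with no interval overlapping. Cluster 8, which held most Socs2, had 114 cells in sGSN-/- and 57 in sGSN-/-Clec9a-/-. Within cluster 8 Socs2 stood at 306 CPM (273 to 342) in WT, 264 (236 to 294) in sGSN-/- and 126 (97.4 to 161) in sGSN-/-Clec9a-/-, so sGSN-/-Clec9a-/- was low there too, while sGSN-/- was not above WT. With the 12 clusters weighted equally the log2 ratio of sGSN-/- to WT turned from 0.57 (0.35 to 0.79) to -0.17 for Socs2 and from 0.52 (0.28 to 0.77) to -0.24 for Cish. Socs1 stood at 19.4 CPM (18.0 to 21.0) in WT, 20.3 (18.5 to 22.2) in sGSN-/- and 18.6 (16.8 to 20.5) in sGSN-/-Clec9a-/-, and Socs3 at 70.8 CPM (68.0 to 73.8) in WT, 72.7 (69.3 to 76.2) in sGSN-/- and 73.8 (70.2 to 77.5) in sGSN-/-Clec9a-/-, and the intervals of all 3 libraries overlapped for each. With equal weights the log2 ratio of Socs1 in sGSN-/- to WT moved from 0.06 (-0.11 to 0.24) to -0.54. Equal weights raise clusters 10 and 11, of 76 and 60 cells, to the weight of any other, and Socs1 in WT and sGSN-/- stood at 230.3 and 103 CPM in cluster 10 and had 2 and 1 UMIs in cluster 11, so these small clusters carry most of that value.

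Ifngr1 stood at 290.2 CPM (284 to 296) in WT, 249 (243 to 255) in sGSN-/- and 257 (250.1 to 264) in sGSN-/-Clec9a-/-, WT being high. Ifngr2 stood at 83.1 CPM (80.0 to 86.3) in WT, 85.3 (81.7 to 89.2) in sGSN-/- and 69.9 (66.4 to 73.5) in sGSN-/-Clec9a-/-, sGSN-/-Clec9a-/- being low. Ifnar1 stood at 84.0, 79.9 and 74.8 CPM, Jak1 at 97.8, 92.6 and 84.6 CPM and Jak2 at 147, 153 and 130.2 CPM, each lowest in sGSN-/-Clec9a-/-. Ifnar2, at 113, 113 and 114 CPM, overlapped throughout. The highest and lowest intervals lay apart for 7 of the 10 genes, Socs1, Socs3 and Ifnar2 being the exceptions, beside 42.0% of the 6682 genes at 10 CPM or more in at least 1 library. With cells thinned those of Ifnar1 also met (79.3, 76.1 and 75.3 CPM). No ratio but those of Socs2 (4.47) and Cish (1.48) of highest to lowest library exceeded 1.22. Within cluster 10 Socs1 stood at 230.3 CPM (178 to 294) in WT, 103 (70.5 to 146) in sGSN-/- and 201 (153 to 259) in sGSN-/-Clec9a-/-, and Cish at 135 CPM (95.3 to 185) in WT, 103 (70.5 to 146) in sGSN-/- and 40.2 (20.8 to 70.2) in sGSN-/-Clec9a-/-, with Ifngr1 and Ifngr2 also lowest in sGSN-/-Clec9a-/- (53.6 and 56.9 CPM).

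**Figure D3:**
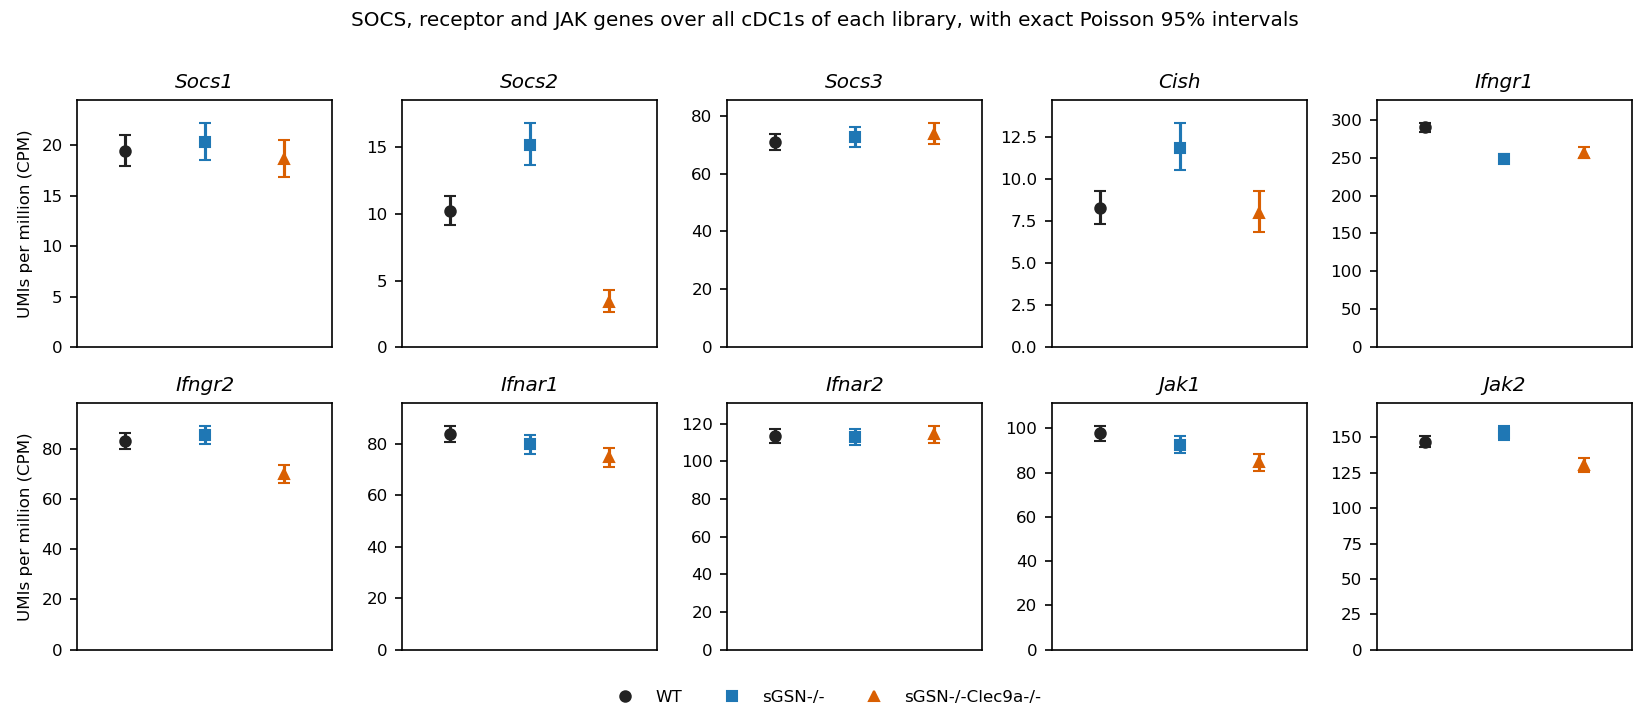
Level of each gene over all cDC1s (CPM, linear axis from 0) in the WT, sGSN-/- and sGSN-/-Clec9a-/- libraries, 1 library per genotype, with exact Poisson 95% intervals as bars. Socs2 stood at 10.2, 15.2 and 3.40 CPM, and the intervals of Socs1, Socs3 and Ifnar2 overlapped.

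The sort held further cell types, named here by markers after clustering the 23052 remaining barcodes that passed quality limits, and these place the cDC1 levels. Clusters left unnamed are outside these rankings. The monocyte or macrophage type pools 5 clusters, among them a cluster with Ifit3, Cxcl9 and Cxcl10 among its leading genes. Socs2 was highest in a cluster with activated cDC markers, at 227 CPM in WT, 165 in sGSN-/- and 108 in sGSN-/-Clec9a-/-, with 34.9 CPM in the T cell cluster, 19.7 in NK cells and 8.65 in cDC2s. Jak2 was highest there too, at 397 CPM in WT, 276 in sGSN-/- and 234 in sGSN-/-Clec9a-/-, and lowest in NK cells, at 37.6 CPM. Socs1 was highest in the T cell cluster, at 65.5 CPM in WT, 85.6 in sGSN-/- and 54.4 in sGSN-/-Clec9a-/-. NK cells had 62.7 CPM, and no other named type was above 21.1 CPM. These levels lay below the 103 CPM of the lowest library of cDC1 cluster 10. Cish was also highest in T cells, at 78.8 CPM in WT, 88.3 in sGSN-/- and 79.2 in sGSN-/-Clec9a-/-, followed by NK cells at 67.3 CPM. Socs3 was highest in cDC2s, at 160.1 CPM in WT, 184 in sGSN-/- and 179 in sGSN-/-Clec9a-/-. Ifngr1 was highest in NK cells, at 725 CPM in WT, 801 in sGSN-/- and 683 in sGSN-/-Clec9a-/-, and Jak1 likewise, at 391 CPM in WT, 444 in sGSN-/- and 395 in sGSN-/-Clec9a-/-. Ifngr2 was lowest there, at 3.13 CPM, and highest in the activated cDC cluster, at 131 CPM in WT, 114 in sGSN-/- and 84.2 in sGSN-/-Clec9a-/-. Both type I receptor chains were highest in plasmacytoid cells, Ifnar1 at 207 CPM in WT, 233 in sGSN-/- and 187 in sGSN-/-Clec9a-/-, and Ifnar2 at 412 CPM in WT, 388 in sGSN-/- and 318 in sGSN-/-Clec9a-/-. These highest types held for 8 of the 10 genes when the barcodes were clustered more coarsely, Socs1 and Cish being then highest in NK cells with no cluster named T cell, and for all 10 with doublets left out.

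On the genome build of the counts (GRCm38, GENCODE M21 positions) Ifnar2 (chr16:91372783-91405589, + strand), Ifnar1 (chr16:91485238-91507441, + strand) and Ifngr2 (chr16:91547072-91565623, + strand) share a stretch of chromosome 16, with Socs1 (chr16:10782240-10785536, - strand) elsewhere on it. Socs2 (chr10:95385362-95417180, - strand) and Ifngr1 (chr10:19591949-19610229, + strand) share chromosome 10, and Socs3 (chr11:117966079-117970047, - strand), Cish (chr9:107296026-107302784, + strand), Jak1 (chr4:101152367-101265282, - strand) and Jak2 (chr19:29251828-29313080, + strand) stand apart. Annotated genes overlap Cish (Gm17041) and Jak1 (Raver2) on the other strand and are counted in these data, while those that overlap Ifnar2 (Gm21970) and Jak1 (Gm12785) on the same strand are not counted here.

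Because Socs1, Socs3 and Cish were highest together in cluster 10, their promoters were read for the letters that interferon and STAT factors are known to bind. Entries for 9 of the 10 genes were found in RefSeq (GRCm38.p6), Socs2 having none, and both strands were searched for TTCNNNGAA, the palindromic STAT motif, and for GAAA and GAAA spaced by any 2 bases, the core of the interferon-stimulated response element (ISRE). The starts named here are those of RefSeq and can differ from the ends of the GENCODE spans given above. For Socs3, Cish and Jak1 the RefSeq start lies inside that span, and for Ifngr2, Ifnar1 and Jak2 it lies before it. In the 250 bases before the start, 7.02% and 2.98% of 32851 promoters hold a match, and in 300 bases from 250 before to 50 after it 8.30% and 3.44%. Socs1 held 2 overlapping ISRE matches, 83 and 77 bases before the start, and Socs3 1 TTCNNNGAA match, 154 bases before it. Ifnar2 held 1 TTCNNNGAA match 214 bases before its start, and Cish, Ifngr1, Ifngr2, Ifnar1, Jak1 and Jak2 held neither there. Cish held 2 TTCNNNGAA matches in the first 20 bases after its RefSeq start (chr9:107296659-107296678, + strand), and in Ifnar1 1 match spans the RefSeq start. The matches describe these letters and no site of binding. Shown 5' to 3' with matches in capitals are the 250 bases before the RefSeq start of Socs1 (chr16:10785537-10785786, - strand) and of Socs3 (chr11:117969367-117969616, - strand) and the stretch of Cish.
Socs1: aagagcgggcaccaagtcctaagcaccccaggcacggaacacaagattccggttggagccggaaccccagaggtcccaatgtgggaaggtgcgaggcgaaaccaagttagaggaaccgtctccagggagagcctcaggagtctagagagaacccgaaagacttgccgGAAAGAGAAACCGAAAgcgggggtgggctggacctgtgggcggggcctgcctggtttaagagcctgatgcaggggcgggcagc
Socs3: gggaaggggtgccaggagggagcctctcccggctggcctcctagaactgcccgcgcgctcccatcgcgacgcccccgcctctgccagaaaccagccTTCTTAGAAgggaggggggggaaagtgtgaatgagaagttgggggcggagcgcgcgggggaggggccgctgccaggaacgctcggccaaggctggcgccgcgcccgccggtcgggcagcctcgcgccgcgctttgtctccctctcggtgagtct
Cish: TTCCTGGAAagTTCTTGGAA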

How the data were processed

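Single-cell RNA was measured in 3 libraries, 1 per genotype. Raw counts of UMIs (Cell Ranger 6.0.1, GRCm38) and a table of cDC1 barcodes with Seurat clusters (4.0.0 in the labels, while the published methods name version 3) were deposited by the authors. Of the table's columns 3 were read, the library, the UMIs per cell and the cluster, beside the barcodes that name its rows, and 3 were not used. UMIs per cell equalled the table's in 4559 of 5806 cells, and the largest difference was 34. Barcodes shared between libraries were kept apart by library.

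Counts were summed per library and cluster (15 sums, and 6 for early and resting cells) and fitted in edgeR 4.0.16 on R 4.3.3 with TMM factors, filterByExpr and the quasi-likelihood F-test, with Benjamini-Hochberg adjustment over all genes tested and a threshold of 0.05. The fit was tested on simulated data. The clusters were called on the same counts, and the 3 libraries differ in genotype, so an adjusted p describes how alike the libraries are, and standard deviations over libraries contain genotype differences. The members and the gene lists were chosen with earlier results of these data known. All 10 genes are named in every comparison, each list is given with some of its largest changes, and genes among the 5 most like each inhibitor by Pearson's correlation of log2(CPM + 1) are named, among genes at 10 CPM or more in at least 1 cluster mean. Genotypes were compared without a test, by exact Poisson 95% intervals. Other barcodes, with at least 200 genes and at most 16.7% mitochondrial UMIs, were clustered (scanpy 1.11.5, leidenalg 0.10.2, resolution 1) and named from marker lists. A type needed at least 3 markers, each in at least 10% of the cluster's cells and at 2 or more times its median level over clusters. Markers among the 10 leading genes decided between types. Tied, mostly doublet and some shallow clusters stayed unnamed. Doublets were the top 6% of Scrublet scores of each library, kept in and left out as an alternative. A fold against 1 to 3 UMIs is given with its counting interval.

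Alternatives were DESeq2 1.42.0, no TMM factors, no filter, the library as a block, each library left out, cells thinned to 3930 UMIs, doublets or cluster 11 left out, the compared groups alone, and clusters called without the 10 genes. Reclustering at resolution 2 was chosen after seeing the data. The library pairs the sums by design, since they come from the same pool of mice. Of 30 correlations between deviations from group means, the lowest was -0.0086, the median 0.0673, the highest 0.330, and 11 were above 0.1. Computations used Python 3.11.15, numpy 2.4.6, scipy 1.17.1, pandas 2.3.3 and matplotlib 3.10.9.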

Additional observations from a re-analysis of the deposited data

Results flagged for a closer look

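Ifngr1 differed in direction between genotypes when cluster 8 was set against cluster 10. Its log2 ratio was -0.66 (counting interval -1.18 to -0.12; 104 and 45 UMIs) in WT and -0.26 (counting interval -0.93 to 0.46; 82 and 24 UMIs) in sGSN-/-, so that both were lower in cluster 8, and 0.94 (counting interval 0.11 to 1.85; 53 and 16 UMIs) in sGSN-/-Clec9a-/-, which was higher in cluster 8. Each value comes from 1 library, and the difference was not tested.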

How the results depend on the processing

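Of 565 recomputed log2 changes, those of each of the 10 genes where it passed the threshold and of Jak1 and Ifnar2 in cluster 9 and Ifngr1 in cluster 8 against 10 and in cluster 10 against 7, 498 kept their direction and their side of the threshold, 47 lost the call, 16 gained one and 4 turned. Other genes that passed or turned under an alternative alone are outside this tally. Those in it that turned were all Ifngr1 in cluster 8 against cluster 10: -0.14 without TMM factors, -0.26 without sGSN-/-Clec9a-/-, -0.58 with cells thinned and -0.0398 without doublets, against 0.08, and it was 0.45 without WT, and the cause was not tested. Between genotypes, equal weight to the clusters turned the log2 ratio of sGSN-/- to WT to -0.17 for Socs2 and -0.24 for Cish, and moved that of Socs1 from 0.06 to -0.54. These weights remove differences in cluster size and also raise the small clusters 10 and 11 to the weight of any other, and which of these moved each ratio was not tested, except that clusters 10 and 11 carry most of the move of Socs1. The ratio of sGSN-/-Clec9a-/- to WT moved from -0.25 to -0.06 for Ifngr2, from -0.18 to -0.05 for Jak2 and from -0.04 to -0.50 for Cish. With cells thinned the genotype intervals of Ifnar1 met. Socs1, Cish, Ifngr1, Jak1 and Jak2 in cluster 8, Socs1, Socs3, Cish, Ifngr1 and Jak2 in cluster 10, and Socs1 and Ifngr1 in cluster 7 kept their calls under all alternatives run. Each genotype had 1 library, the clusters were called on the counts that were then compared, and cluster 10 held 76 cells and 891318 UMIs, so depth limits what could be read there.

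With 1 library left out, the genes past the threshold numbered 656 to 978 for cluster 7, 2788 to 3984 for cluster 8, 277 to 499 for cluster 9 and 496 to 664 for cluster 10 against the other cDC1s, 1484 to 1892 for cluster 8 against cluster 10, 353 to 632 for cluster 10 against cluster 7, 1964 to 2857 for cluster 8 against cluster 9, 792 to 1177 for cluster 7 against cluster 9 and 2579 to 3384 for the early against the resting cells. Of the 10 genes, 2 to 3, 7 to 9, 0 to 3, 5 to 7, 4 to 6, 4 to 6, 6 to 7, 3 to 6 and 1 to 3 passed in the same order; fewer sums enter these fits. Thinned cells left 4136 genes to test, and 550, 2132, 329 and 443 passed in clusters 7 to 10, 1184 for cluster 8 against 10, 308 for 10 against 7, 1515 for 8 against 9 (4 of the 10 genes) and 677 for 7 against 9, as fewer genes and UMIs were tested. Thinning ended the calls of Ifnar1 in cluster 7, Ifngr2 and Ifnar2 in cluster 8, Socs2 in cluster 10, Ifnar1 in cluster 8 against 10, Socs2 in cluster 10 against 7, Cish, Ifngr2 and Ifnar1 in cluster 8 against 9 and Ifngr1 in cluster 7 against 9. Fitting clusters 8 and 10 alone gave 1479 genes, from 4229 tested. In cluster 9, 4 of the 10 genes passed with DESeq2 (915 of all 7579 tested), 4 with the library as a block (741 of 7579) and 4 of 9 tested with the compared groups alone (939 of 10568), as Jak1 and Ifnar2 passed; the cause was not tested. The block also brought in Jak1 in cluster 8 against 10 and in cluster 7 against 9 and Ifngr1 in cluster 10 against 7, and changed no other call of the 10 genes. Without TMM factors Ifnar2 also passed in cluster 8 against 10 and Socs3 in cluster 8 against 9, and Socs1 passed in the early against the resting cells with cells thinned and with doublets left out, the latter ending the call of Cish. Clusters 7 and 10 fell into 1 cluster when the cells were clustered without the 10 genes at resolution 1, so that alternative gave no value for them; at resolution 2 the clusters that held 82.5%, 85.5%, 86.4% and 93.4% of the cells of clusters 7, 8, 9 and 10 gave 4, 9, 3 and 7 of the 10 genes past the threshold, and 1356, 4308, 758 and 1113 of all 7784 tested.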
